A study of Homo sapiens with 12 samples.

Results

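The subunits of the nuclear RNA polymerases I, II and III were examined in K562 cells, an established human cell line of chronic myeloid leukemia origin. Cells received DMSO, the solvent control, or 10 μM FT671, a compound that inhibits the deubiquitinase USP7, for 48 h. Each group had 3 RNA-seq libraries made from total RNA after removal of ribosomal RNA, and the study describes the treatments as independent experiments. The line carried no transgene that the labels mention, and it is a single cell line, so that the values describe K562 and not leukemia cells in general. Members were the protein-coding genes in the annotation whose symbol begins with POLR1, POLR2 or POLR3 followed by a letter. These were 34 of the 60609 genes in the files, under 33 symbols, since POLR2J3 has 2 identifiers. Of these, 31 passed the filter on low counts, among 13895 genes tested.

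RNA polymerase I makes the long precursor of ribosomal RNA in the nucleolus, RNA polymerase II makes messenger RNA and many small RNAs, and RNA polymerase III makes transfer RNA, 5S ribosomal RNA and other short RNAs. In each enzyme the largest and the second-largest subunit form the catalytic center between them. Small subunits shared by all of the enzymes, an assembly platform and a stalk complete them. RNA polymerases I and III also carry built-in subcomplexes related to general factors, which for RNA polymerase II are the separate factors TFIIF and TFIIE. Of the members, 5 are shared by I, II and III, 2 by I and III, 6 belong to I, 11 to II (with copies and an associated protein) and 10 to III.

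Total counts were 5320245 to 14250500 in the DMSO libraries and 4555220 to 11437804 in the FT671 libraries, so that 3 counts corresponded to 0.211 to 0.659 CPM, that is counts scaled to a library of 1000000. DMSO replicate 3 stood apart: its chi-square per degree of freedom against the other DMSO libraries was 7.55 and 8.73, whereas it was 2.07 to 3.20 for the other pairs of replicates. USP7 itself, the target of the inhibitor, had 119, 107 and 131 CPM in DMSO and 29.3, 34.1 and 35.8 CPM upon FT671 (log2 fold change -1.82, SE 0.104, adjusted p = 2.66e-08 by edgeR's quasi-likelihood test). Of 8 genes that mark K562 as an erythroid leukemia line, 7 passed the filter. Of those reported, GATA1, TAL1 and KLF1 were lower and the globin genes HBG1, HBG2 and HBZ higher upon FT671, and HBE1 was too low to test. Of 9 markers of other cell types, MS4A1 and KRT5 had no counts in any library and CD14 and CD3E were at or below 0.541 CPM, whereas the T cell gene CD3D (18.3 CPM in DMSO, 25.6 CPM upon FT671) and the epithelial gene EPCAM (60.8 and 84.9 CPM) were detected and higher. COL1A1 and COL1A2 stayed at or below 2.35 CPM. Summed over the 9 markers, the level was 84.2 to 85.2 CPM in the DMSO and 114 to 118 CPM in the FT671 libraries, and its part in the results was not tested.

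Many subunit transcripts were moderately upregulated upon USP7 inhibition, while the second-largest subunits of RNA polymerases II and III were strongly downregulated. At an adjusted p under 0.05, 15 of the 31 tested subunits (48.4%) were higher and 4 (12.9%) were lower, against 23.6% higher and 26.5% lower (50.1% in either direction) among all genes tested. The median log2 fold change of the subunits was 0.21, with 24 above and 7 below 0, whereas the median over all genes tested was -0.010. At the stricter adjusted p of 1e-05, POLR2A and POLR3G were higher and POLR2B and POLR3B lower. Among all genes, 1.79% were higher and 4.13% lower at that threshold, that is 249 and 574 genes. After a correction for gene length these became 518 and 621 genes, and after a correction for GC content 961 and 1066. Every FT671 library was above every DMSO library for 16 subunits and below for 4, against 26.8% and 30.3% of all genes (57.1% in either direction). In the RNA of a whole culture, fewer cells of a kind and less RNA per cell cannot be told apart.

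**Figure D1:**
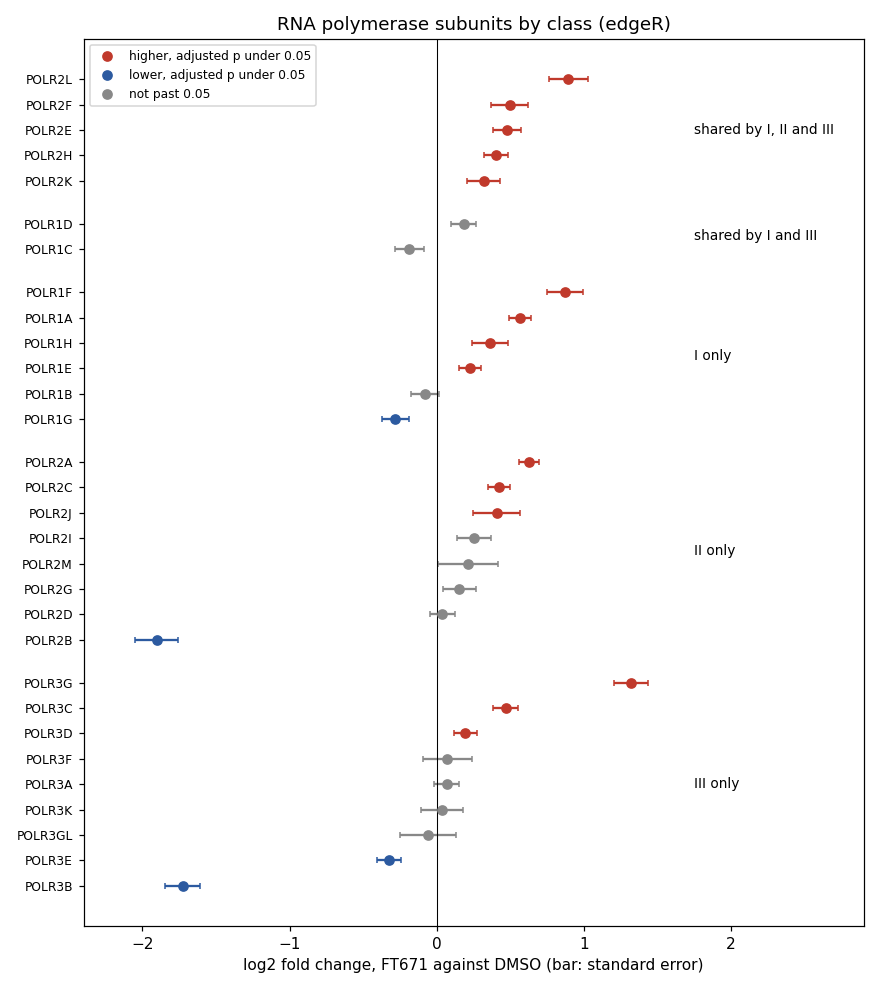
Log2 fold change of 30 of the 31 tested subunits, FT671 against DMSO (horizontal axis), with standard errors as bars, ordered by class and colored by call at an adjusted p of 0.05. POLR2B (-1.90) and POLR3B (-1.73) lie far to the left of the other subunits shown, POLR3G (1.32) lies farthest to the right, and all 5 subunits shared by the enzymes lie to the right of 0.

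The promoters of 4 subunits on which the results turn are shown first: those of the downregulated POLR2B and POLR3B, and those of POLR2A and POLR1A, which encode the largest subunits of RNA polymerases II and I and were upregulated. Each runs 5′ to 3′ on the strand of its gene, from 250 bases before to 50 bases after the start in RefSeq on GRCh38.p14. Capitals mark the matches of the motifs described next.
POLR2B, chr4:56978646-56978945, plus strand: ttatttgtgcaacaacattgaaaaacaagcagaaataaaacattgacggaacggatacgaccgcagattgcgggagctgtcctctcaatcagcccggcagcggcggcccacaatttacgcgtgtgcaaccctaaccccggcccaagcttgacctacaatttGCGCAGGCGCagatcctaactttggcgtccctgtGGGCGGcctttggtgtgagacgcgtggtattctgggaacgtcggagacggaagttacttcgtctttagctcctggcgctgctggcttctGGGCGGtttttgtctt
POLR3B, chr12:106357498-106357797, plus strand: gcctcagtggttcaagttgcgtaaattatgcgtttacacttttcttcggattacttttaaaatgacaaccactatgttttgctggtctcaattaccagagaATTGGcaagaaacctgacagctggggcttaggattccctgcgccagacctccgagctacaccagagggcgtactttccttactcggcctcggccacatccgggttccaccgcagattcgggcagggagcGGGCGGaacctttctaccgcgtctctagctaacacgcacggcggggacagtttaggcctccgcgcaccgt
POLR2A, chr17:7484116-7484415, plus strand: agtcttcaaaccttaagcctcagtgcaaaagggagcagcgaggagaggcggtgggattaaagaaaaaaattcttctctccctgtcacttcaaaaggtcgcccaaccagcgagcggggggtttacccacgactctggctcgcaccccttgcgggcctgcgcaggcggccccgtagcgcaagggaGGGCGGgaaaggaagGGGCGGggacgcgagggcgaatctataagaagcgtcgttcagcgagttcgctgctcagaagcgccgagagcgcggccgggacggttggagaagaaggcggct
POLR1A, chr2:86105837-86106136, minus strand: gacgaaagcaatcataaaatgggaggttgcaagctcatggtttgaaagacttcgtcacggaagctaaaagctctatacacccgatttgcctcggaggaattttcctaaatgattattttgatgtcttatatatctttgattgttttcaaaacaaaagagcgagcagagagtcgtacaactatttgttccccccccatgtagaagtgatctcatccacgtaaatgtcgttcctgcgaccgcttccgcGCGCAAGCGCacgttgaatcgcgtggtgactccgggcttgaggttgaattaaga

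The letter strings of 6 motifs were searched on both strands of these windows. The GC box (GGGCGG), bound by the SP family, was found in POLR2B at positions -55 and 35 from the start, in POLR3B at -20 and in POLR2A at -67 and -52. The NRF1 site was found in POLR2B at -89 and in POLR1A at -4, and the CCAAT box, read as ATTGG, in POLR3B at -149. Neither the ETS site (CCGGAAG), the E box (CACGTG) nor the TATA box (TATAAA) was found in these 4 windows. Of the 33 member symbols, 24 had an entry in the RefSeq table. Among these 24, the GC box was present in 16 (45% of all 35116 entries), the ETS site in 9 (10.3%), the NRF1 site in 6 (5.78%), the E box and the CCAAT box in 4 each (7.26% and 34.6%) and the TATA box in 1 (11.5%). No string contains another of them. The member promoters held between 15 and 47 CpG dinucleotides, with a median of 27.5, against a median of 14.0 over all entries. No string of the 6 was found in both POLR2B and POLR3B and not in POLR2A. A match of letters is a description and not a bound site.

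The largest subunits carry most of the bridge and clamp around the active site. POLR2A encodes the largest subunit of RNA polymerase II, whose C-terminal repeats are phosphorylated during transcription. It had 279, 297 and 312 CPM in the DMSO libraries and 441, 456 and 472 CPM in the FT671 libraries. The groups did not overlap, and POLR2A was 1.54-fold higher (log2 fold change 0.63, SE 0.0700, adjusted p = 7.13e-06). POLR1A, its counterpart in RNA polymerase I, had 145, 138 and 157 CPM in DMSO and 220, 217 and 212 CPM upon FT671. It was 1.48-fold higher (log2 0.57, SE 0.0721, adjusted p = 2.27e-05), again without overlap. POLR3A, the largest subunit of RNA polymerase III, had 88.1, 88.3 and 101 CPM in DMSO and 99.3, 99.6 and 91.4 CPM upon FT671. These groups overlapped, and the log2 fold change of 0.068 (SE 0.0834) did not pass the test (adjusted p = 0.523), but POLR3A passed after a correction for gene length (0.20).

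The second-largest subunits form the opposite wall of the active center. POLR2B, of RNA polymerase II, had 53.8, 51.6 and 70.1 CPM in DMSO and 13.1, 13.9 and 18.0 CPM upon FT671. All FT671 libraries lay far below the lowest DMSO library, and POLR2B was 3.74-fold lower (log2 -1.90, SE 0.148, adjusted p = 2.66e-07). POLR3B, of RNA polymerase III, had 34.6, 31.4 and 33.6 CPM in DMSO and 9.55, 10.6 and 9.92 CPM upon FT671. It was 3.31-fold lower, without overlap (log2 -1.73, SE 0.118, adjusted p = 1.14e-07). Ordered by log2 fold change from the lowest, POLR2B was the 98th and POLR3B the 145th of 13895 genes. POLR1B, of RNA polymerase I, had 44.3, 43.0 and 49.9 CPM in DMSO and 44.4, 43.1 and 41.9 CPM upon FT671. Its groups overlapped and its log2 fold change of -0.079 (SE 0.0969) did not pass the test (adjusted p = 0.522).

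**Figure D2:**
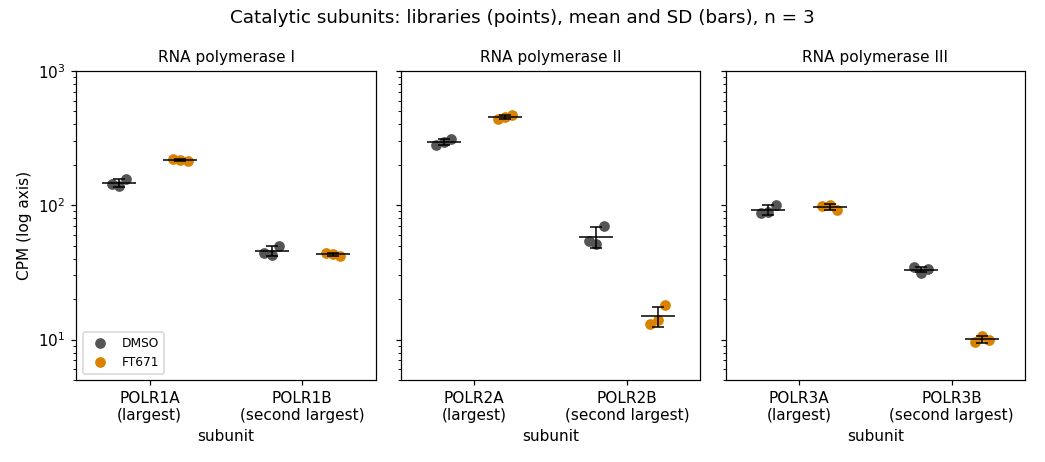
CPM (log axis) of the largest and the second-largest subunit of each polymerase in the DMSO (grey) and FT671 (orange) libraries, with points for libraries and bars for mean and SD (n = 3). POLR2B and POLR3B are lower in every FT671 library, POLR1A and POLR2A are higher, and POLR1B and POLR3A overlap between groups.

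The ratio of both catalytic subunits within a library does not depend on library scaling. These ratios, computed on reads per kb of exon, were chosen after the values were seen and are given without a test. The POLR2A to POLR2B ratio was 3.62 ± 0.460 (SD, n = 3) in DMSO and 21.7 ± 2.77 upon FT671, a 5.99-fold rise. The POLR3A to POLR3B ratio went from 0.840 ± 0.0693 to 2.89 ± 0.184, so that POLR3B had the higher level per length in DMSO and POLR3A upon FT671. By the length of the longest coding transcript, however, POLR3A already exceeded POLR3B in DMSO (31.1 against 17.6). These values are reads per kb of that transcript, untranslated parts included, scaled to the same total. The POLR1A to POLR1B ratio rose from 1.47 ± 0.0307 to 2.29 ± 0.0269. In each of these 3 ratios the groups did not overlap. Of 8 pairs computed in all, the groups overlapped for POLR2D to POLR2G (0.313 ± 0.0819 in DMSO, 0.275 ± 0.0171 upon FT671) and for POLR2C to POLR2J (0.665 ± 0.208 and 0.622 ± 0.0858).

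Neighboring and overlapping genes were read beside these changes, since the strand setting of the counting is not given in the sources used here and reads from both strands of an overlap then cannot be told apart. POLR2B (ENSG00000047315, chr4:56977722-57031158 on hg38, plus strand) shares 260 bases, or 4.41% of its exons, with IGFBP7 on the opposite strand. IGFBP7, a secreted binding protein, was itself lower (5.50 against 0.998 CPM, log2 -2.30, adjusted p = 1.25e-04), at a level well below that of POLR2B. NOA1, a mitochondrial GTPase whose gene lies 116 bases from POLR2B, had a log2 fold change of -0.10 (adjusted p = 0.316). POLR3B (ENSG00000013503, chr12:106357748-106510198, plus strand) shares only 2.18% of its exons with an antisense lncRNA. Its neighbor TCP11L2, at a distance of 10745 bases, was lower (log2 -0.99, adjusted p = 0.00224). On the other side the nearest gene tested, RIC8B, lay 264423 bases away and had a log2 fold change of -0.048 (adjusted p = 0.860). POLR2A (chr17:7484366-7514616, plus strand) and POLR1A (chr2:86020216-86106155, minus strand) overlap no other gene, like POLR2G, POLR2H, POLR2K and POLR3K. ZBTB4, 103 bases from POLR2A, was lower (log2 -1.33, adjusted p = 2.61e-06), and PTCD3, 68 bases from POLR1A, was higher (log2 0.64, adjusted p = 8.39e-05). The nearest genes tested on the other sides lay farther away. SENP3, 47303 bases from POLR2A, had a log2 fold change of -0.088 (adjusted p = 0.612). ST3GAL5, 115017 bases from POLR1A, was lower (log2 -0.76, adjusted p = 0.00192). ADGRL3, 4169168 bases from POLR2B, was lower as well (log2 -0.79, adjusted p = 0.00953).

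All 5 subunits that occur in each of the 3 enzymes were upregulated, with log2 fold changes of 0.32 to 0.89 (median 0.48). In each the groups did not overlap. Of all genes tested, 23.6% were higher, and in 26.8% every FT671 library was above every DMSO library. POLR2L, which anchors the assembly platform, had 96.9, 101 and 69.5 CPM in DMSO and 199, 159 and 148 CPM upon FT671. It was 1.86-fold higher (log2 0.89, SE 0.130, adjusted p = 7.00e-05). On the opposite strand CD151 covers 22.8% of its exons, and CD151 was higher as well (log2 0.29, adjusted p = 0.0136). The other shared subunits rose less. POLR2E, at the downstream jaw of the enzymes, had 219, 206 and 162 CPM in DMSO and 289, 270 and 264 CPM upon FT671 (log2 0.48, SE 0.0975, adjusted p = 0.00106). POLR2F, a small subunit near the clamp, rose from 38.4, 39.2 and 28.1 CPM to 56.4, 46.2 and 49.6 CPM (log2 0.50, SE 0.126, adjusted p = 0.00470). POLR2H, a small auxiliary subunit, rose from 82.7, 81.2 and 72.5 CPM to 99.1, 109 and 105 CPM (log2 0.40, SE 0.0815, adjusted p = 0.00103). POLR2K, a zinc-binding subunit of the platform, showed the smallest rise, from 31.3, 30.2 and 28.5 CPM to 32.0, 39.9 and 39.9 CPM (log2 0.32, SE 0.110, adjusted p = 0.0271). All 5 had their lowest value in DMSO replicate 3. The shared subunits took 0.0366% of the counts in DMSO replicate 3 and 0.0455% to 0.0475% in the other DMSO libraries, against 0.0594% to 0.0667% upon FT671. Without DMSO replicate 3 the median log2 fold change was 0.35 and all 5 still passed the test, whereas POLR2K missed it without DMSO replicate 2 (log2 0.33), FT671 replicate 2 (0.28) or FT671 replicate 3 (0.26). POLR2K also missed it by DESeq2's Wald test (0.32), without a filter on low counts (0.28) and after corrections for gene length (0.22) or GC content (0.20).

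POLR1C and POLR1D, which pair to form the assembly platform of RNA polymerases I and III, did not pass the test. POLR1C had 49.998, 48.1 and 42.5 CPM in DMSO and 44.2, 39.5 and 40.9 CPM upon FT671 (log2 -0.19, SE 0.0996, adjusted p = 0.133). POLR1D had 167, 189 and 171 CPM in DMSO and 180, 197 and 219 CPM upon FT671 (log2 0.18, SE 0.0845, adjusted p = 0.0864). Both pairs of groups overlapped. POLR1C passed the test without DMSO replicate 3 (log2 -0.25), and POLR1D passed it without DMSO replicate 2 (0.25) or FT671 replicate 1 (0.25) and after corrections for gene length (0.34) or GC content (0.22).

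**Figure D3:**
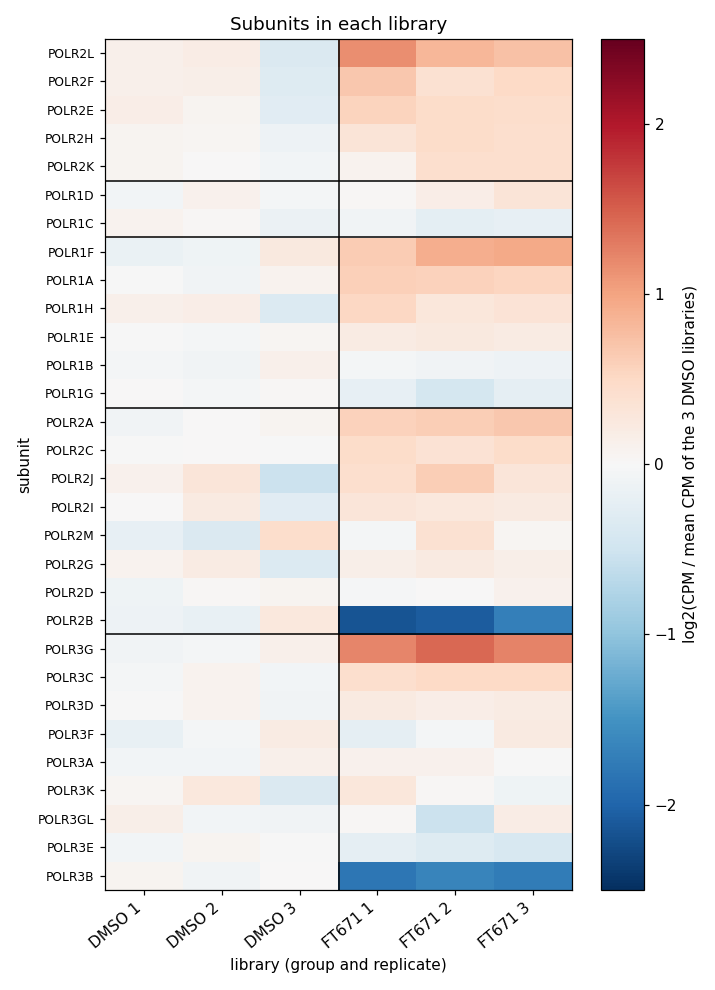
The same 30 subunits (rows, by class) in each of the 6 libraries (columns), colored by log2 of its CPM over the mean of the 3 DMSO libraries. POLR2B and POLR3B are blue and POLR3G and POLR2L red in all FT671 libraries, and DMSO replicate 3 is paler or bluer than the other DMSO libraries for several small subunits, POLR2J (23.8 CPM) among them.

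Among the 6 subunits found in RNA polymerase I alone, 4 (66.7%) were higher and 1 (16.7%) was lower. The shares of all genes tested were 23.6% and 26.5%. POLR1F, which forms the stalk, showed the largest rise of these, with 32.0, 33.3 and 43.1 CPM in DMSO and 56.0, 68.2 and 69.5 CPM upon FT671. Its groups did not overlap, and it was 1.83-fold higher (log2 0.87, SE 0.123, adjusted p = 5.58e-05). POLR1H, a zinc-ribbon subunit involved in RNA cleavage, had 59.4, 60.5 and 42.9 CPM in DMSO and 78.0, 65.9 and 69.2 CPM upon FT671 (log2 0.36, SE 0.120, adjusted p = 0.0215). It missed the test without FT671 replicate 1 (log2 0.30) or FT671 replicate 3 (0.39). POLR1HASP, an antisense pseudogene that covers 24.5% of its exons, had a log2 fold change of 0.18 (adjusted p = 0.375). POLR1E and POLR1G form the TFIIF-like pair of RNA polymerase I, and they moved in opposite directions. POLR1E had 83.4, 80.5 and 87.1 CPM in DMSO and 96.6, 99.2 and 96.7 CPM upon FT671 (log2 0.22, SE 0.0752, adjusted p = 0.0233). POLR1G had 67.0, 64.7 and 68.2 CPM in DMSO and 57.7, 49.3 and 56.9 CPM upon FT671 (log2 -0.28, SE 0.0906, adjusted p = 0.0185).

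Neither pair of groups overlapped, yet both changes were small. POLR1E missed the test without DMSO replicate 1 (log2 0.22), DMSO replicate 2 (0.20), FT671 replicate 2 (0.21) or FT671 replicate 3 (0.23). It also missed it with library totals alone (0.19), without a filter on low counts (0.18) and after a correction for gene length (0.17). POLR1G missed it without DMSO replicate 1 (-0.28) or FT671 replicate 2 (-0.21), and after a correction for GC content (-0.19). The exons of POLR1G overlap those of the repair gene ERCC1 on the opposite strand over 49.8% of their length, and ERCC1 was lower too (log2 -0.40, adjusted p = 0.00109). The POLR1E to POLR1G ratio per kb of exon rose from 1.61 ± 0.0230 to 2.30 ± 0.243, which is a description without a test.

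RNA polymerase II had 8 tested members of its own besides the shared ones, the associated protein POLR2M included. Of these, 3 (37.5%) were higher and 1 (12.5%), POLR2B, was lower, against 23.6% and 26.5% of all genes tested. POLR2C, which pairs with POLR2J in the assembly platform, had 83.9, 85.8 and 84.5 CPM in DMSO and 116, 109 and 116 CPM upon FT671. It rose by a log2 fold change of 0.42 (SE 0.0738, adjusted p = 3.17e-04) without overlap. POLR2J had 37.3, 42.2 and 23.8 CPM in DMSO and 46.4, 52.5 and 42.5 CPM upon FT671. Its groups lay close to each other, with a log2 fold change of 0.41 (SE 0.159, adjusted p = 0.0456). It missed the test without DMSO replicate 1 (log2 0.46) or 3 (0.23), and without FT671 replicate 1 (0.42), 2 (0.33) or 3 (0.50). It also missed it with library totals alone (0.38) and after a correction for gene length (0.33). POLR2I, a zinc-binding subunit near the jaw, had 42.4, 49.0 and 34.8 CPM in DMSO and 52.2, 50.7 and 49.2 CPM upon FT671. Although the groups did not overlap, its log2 fold change of 0.25 (SE 0.116) did not pass the test (adjusted p = 0.0862), but it passed without DMSO replicate 2 (0.38) and after a correction for GC content (0.34). Reads of POLR2I are uncertain, since TBCB covers 19.1% of its exons and an unnamed transcript 69.0%, both on the opposite strand.

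POLR2D and POLR2G form the stalk of RNA polymerase II. POLR2D had a mean of 68.9 ± 4.52 CPM (SD, n = 3) in DMSO and 70.2 ± 3.52 CPM upon FT671 (log2 0.038, SE 0.0865, adjusted p = 0.735). POLR2G had 82.8 ± 15.9 and 93.2 ± 2.60 CPM (log2 0.15, SE 0.114, adjusted p = 0.277). Both overlapped between groups. POLR2G passed the test after a correction for GC content (log2 0.22), and leaving out a library gave 0.016 (without DMSO replicate 3) to 0.27 (without DMSO replicate 2). POLR2M, a protein that associates with RNA polymerase II and renders it dependent on Mediator, had 9.39 ± 2.94 and 10.4 ± 1.67 CPM (log2 0.21, SE 0.205, adjusted p = 0.414), and it passed the test without DMSO replicate 3 (log2 0.40). GCOM1 shares 20.3% of the POLR2M exons on the same strand. POLR2J2 and both POLR2J3 identifiers are near-identical copies of POLR2J and had between 0 and 3 counts in every library. Reads that map equally well to several copies are not counted on a gene by this aligner, so that the level of these copies, and in part of POLR2J, is uncertain.

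RNA polymerase III alone had 10 subunits, of which 3 (30%) were higher, 2 (20%) were lower and 5 did not pass the test. The shares of all genes tested were 23.6% higher and 26.5% lower. POLR3G and its paralog POLR3GL are alternative forms of a subunit in the initiation subcomplex, and POLR3G is known for its expression in undifferentiated and transformed cells. POLR3G had 14.3, 14.7 and 16.8 CPM in DMSO and 35.8, 41.5 and 35.9 CPM upon FT671. It was 2.49-fold higher without overlap (log2 1.32, SE 0.115, adjusted p = 8.08e-07), the 255th of 13895 genes from the highest. POLR3GL had 8.93, 7.69 and 7.58 CPM in DMSO and 8.22, 5.59 and 9.12 CPM upon FT671. Its groups overlapped (log2 -0.059, SE 0.190, adjusted p = 0.817). Per kb of exon, the POLR3G to POLR3GL ratio was 0.721, 0.860 and 0.992 in DMSO and 1.94, 3.29 and 1.77 upon FT671. It was below 1 in every DMSO library and above 1 in every FT671 library, with a difference of 1.40 on the log2 scale. The two-sided exact permutation test over the libraries gave p = 0.1, the smallest value that 3 against 3 libraries allow. The overlapping gene MBLAC2 covers 6.46% of the POLR3G exons and had a log2 fold change of -0.0035. POLR3GL shares 21.1% of its exons with an unnamed coding gene on the same strand that had 0 counts in every library, so that reads there may not have been counted and the level of the ratio against 1 is uncertain.

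POLR3C and POLR3F complete the initiation subcomplex. POLR3C had 56.0, 61.6 and 55.3 CPM in DMSO and 76.6, 81.0 and 81.7 CPM upon FT671, without overlap (log2 0.47, SE 0.0841, adjusted p = 3.96e-04). POLR3F had 9.88 ± 1.44 and 9.84 ± 1.56 CPM (log2 0.073, SE 0.169, adjusted p = 0.743), with groups that coincided. POLR3D and POLR3E form the TFIIF-like pair of RNA polymerase III and moved apart, like POLR1E and POLR1G. POLR3D had 109, 117 and 104 CPM in DMSO and 129, 123.2 and 127 CPM upon FT671 (log2 0.19, SE 0.0756, adjusted p = 0.0448). POLR3E had 85.5, 93.4 and 88.9 CPM in DMSO and 76.2, 71.1 and 67.6 CPM upon FT671 (log2 -0.32, SE 0.0823, adjusted p = 0.00475). In both the groups did not overlap, and the POLR3D to POLR3E ratio per kb of exon was 2.09 ± 0.102 in DMSO and 3.0 ± 0.164 upon FT671. After a correction for gene length POLR3E no longer passed (log2 -0.18). POLR3D missed the test without DMSO replicate 1 (log2 0.19) or 3 (0.15), and without FT671 replicate 1 (0.18), 2 (0.21) or 3 (0.20). It also missed it by DESeq2's Wald test (0.20) and with library totals alone (0.16). The same held without a filter on low counts (0.16) and after thinning to the smallest library (0.15). An antisense lncRNA that covers 7.92% of the POLR3E exons was lower (log2 -0.64, adjusted p = 0.0260).

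**Figure D4:**
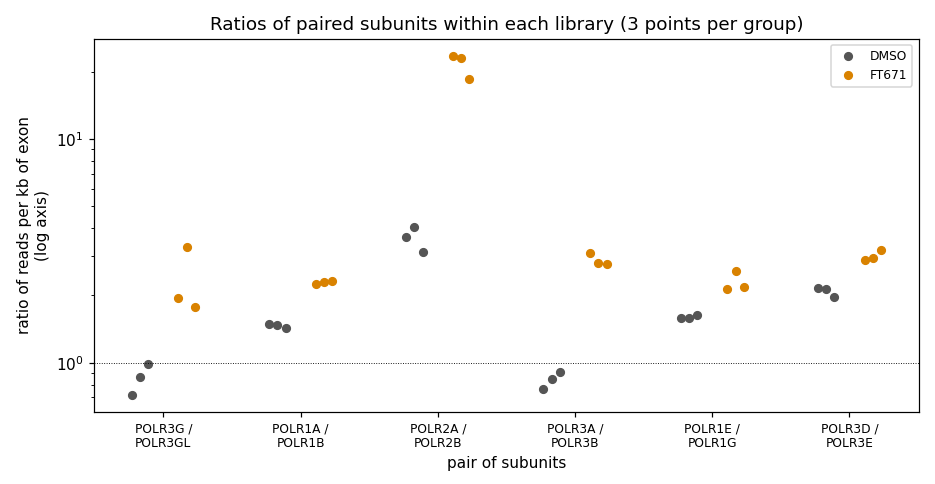
Ratio of reads per kb of exon (log axis) between paired subunits in each library, DMSO in grey and FT671 in orange, with 3 points per group and a dotted line at 1. In all 6 pairs shown, of 8 computed, every FT671 library lies above every DMSO library. The widest gap is that of POLR2A to POLR2B (3.62 against 21.7 on average). Pairs other than POLR3G to POLR3GL were chosen after their values were seen. POLR3G to POLR3GL was planned, but with earlier results of these data known.

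POLR3K, involved in RNA cleavage and termination, had 42.9 ± 9.04 and 45.1 ± 6.43 CPM (log2 0.036, SE 0.143, adjusted p = 0.854). Its groups overlapped. CRCP, a stalk subunit of RNA polymerase III, does not carry a POLR symbol and was higher (39.9 against 52.8 CPM, log2 0.41, adjusted p = 0.00284). POLRMT, the separate polymerase of mitochondria, was lower without overlap (65.1 against 27.7 CPM, log2 -1.25, adjusted p = 6.53e-07).

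Counted over whole enzymes, with shared subunits included, 9 of 13 RNA polymerase I subunits were higher and 1 lower (median log2 fold change 0.36). For RNA polymerase II, 8 of 13 tested members, the associated protein POLR2M included, were higher and 1 lower (0.40). For RNA polymerase III, 8 of 17 were higher and 2 lower (0.18). Among all genes tested, 23.6% were higher and 26.5% lower. The counts per enzyme overlap through the shared subunits, and the differences between the enzymes were not tested. As reads per kb of exon, scaled so that all genes of a library sum to 1000000, the level in DMSO ranged from 4.87 for POLR2M and 4.90 for POLR3F to 262 for POLR2L. This order depended on the length used: with the longest coding transcript in place of all exons, POLR2F went from 16.6 to 133 and POLR1D from 47.3 to 561, and the Spearman correlation between both orders was 0.775 over 31 genes. Across the tested subunits, the log2 fold change had a Spearman correlation of -0.107 with exon length, 0.127 with GC content and 0.107 with the CPM in DMSO. These are descriptions over genes of the same libraries.

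The factors that work with the polymerases were counted in 4 lists of 73 genes, 71 of them tested. Of these, 29 (40.8%) were higher and 10 (14.1%) lower, against 23.6% and 26.5% of all genes tested. Their median log2 fold change was 0.14. Among 8 RNA polymerase I factors, 3 were higher and 1 lower. TAF1D and TAF1A, subunits of the promoter selectivity factor, rose by 1.24 (adjusted p = 4.18e-07) and 0.84 (adjusted p = 2.04e-04) on the log2 scale. TAF1C, of the same factor, rose by 0.43 (adjusted p = 0.0131). UBTF, which keeps ribosomal DNA open, fell from 191, 193 and 195 CPM to 98.8, 93.8 and 90.9 CPM (log2 -1.03, adjusted p = 1.20e-07). UBTF and POLR1A thus moved in opposite directions.

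Among 31 tested general factors of RNA polymerase II, 12 (38.7%) were higher and 3 (9.68%) lower. The shares of all genes tested were 23.6% and 26.5%. The TFIIH subunits GTF2H3 (log2 0.95, adjusted p = 7.04e-06) and GTF2H5 (0.61, adjusted p = 0.0185) showed the largest rises. The groups of GTF2H5 overlapped, with 9.69, 7.69 and 9.43 CPM in DMSO and 9.11, 17.3 and 13.8 CPM upon FT671. The TFIID scaffold TAF4 (-0.90, adjusted p = 1.56e-05) and the TFIIE subunit GTF2E1 (-0.59, adjusted p = 0.00584) showed the largest falls. Among 17 RNA polymerase III factors, 7 were higher and 3 lower. The median log2 fold change of these 17 was -0.028, with 8 above and 9 below 0. Without DMSO replicate 3, 7 of them were higher and 7 lower. The La protein SSB, which binds new transcripts, rose by 1.03 (adjusted p = 1.04e-05) and SNAPC1 by 0.79 (adjusted p = 0.00126) on the log2 scale. BRF1, the TFIIIB subunit that recruits the enzyme to transfer RNA genes, had a log2 fold change of -0.76 (adjusted p = 4.63e-04), and the TFIIIC subunit GTF3C2 one of -0.57 (adjusted p = 1.17e-04). Among 15 assembly and import factors, 7 were higher and 3 lower. The prefoldin subunits PFDN6 (0.97, adjusted p = 9.47e-07) and PFDN2 (0.61, adjusted p = 7.49e-05) were higher, whereas RPAP1 (-0.55, adjusted p = 1.32e-04) and URI1 (-0.52, adjusted p = 5.16e-04), members of the machinery that assembles RNA polymerase II, were lower. Without DMSO replicate 3, 18 rather than 10 of the factors in the 4 lists were lower and 34 rather than 29 were higher. Among all genes, lower calls then went from 3687 to 4100 and higher calls from 3276 to 3830, with 14909 rather than 13895 genes tested.

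**Figure D5:**
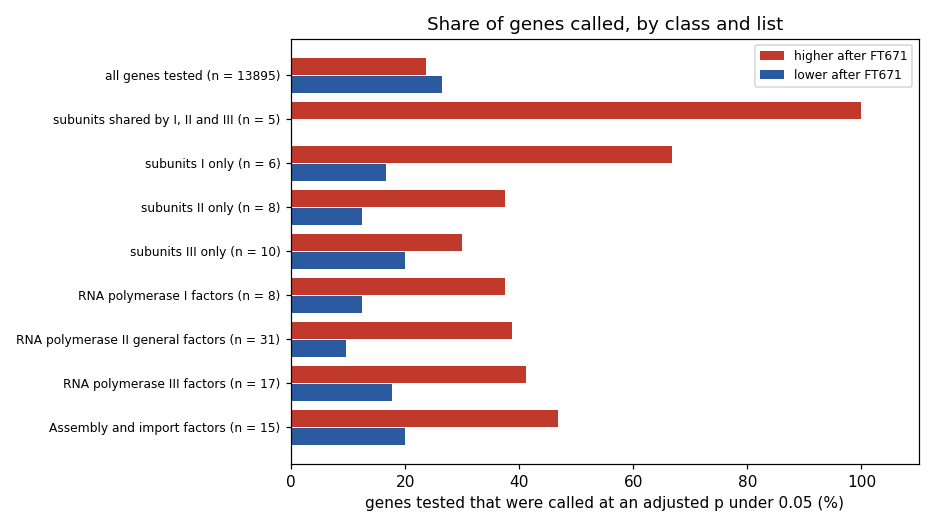
Share of tested genes (%) that were higher (red) or lower (blue) upon FT671 at an adjusted p of 0.05, for all genes, for 4 classes of subunits and for 4 lists of factors, with the number of genes tested beside each name. Among all genes lower calls (26.5%) outnumber higher calls (23.6%), whereas in each class and list shown higher calls outnumber lower calls. Shares higher run from 30% for the subunits of RNA polymerase III alone to 100% for those shared by I, II and III. The class shared by I and III (2 genes tested) had 0% called in either direction and is not shown.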

How the data were processed

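Read counts per gene of 6 RNA-seq libraries of K562 cells (3 DMSO, 3 FT671) were used as the authors deposited them, without normalization. Per the study's methods, libraries of ribosomal-RNA-depleted total RNA (KAPA RNA HyperPrep with RiboErase) were sequenced paired-end. STAR, run in two-pass mode on hg38, aligned the reads and counted them. The submitters' processing notes name STAR and DESeq2 with hg38 and GRCh38. The version of STAR, the annotation release and the strand setting are not given in the sources used here. The 6 ChIP samples of the series were not used here.

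Of 60609 identifiers, 60295 were matched to GENCODE release 44 for symbols, type, exons and positions. The 314 that were not matched held 0.0609% of the counts and stayed in the fit. Genes were filtered with filterByExpr and scaled by TMM. The groups were compared by the quasi-likelihood test of edgeR 4.0.16 (R 4.3.3), with Benjamini-Hochberg adjustment over all 13895 genes tested. Every adjusted p in the text comes from this fit. Standard errors were derived from the log2 fold change and the F statistic (size over root F). CPM use the scaled library sizes. The ratio of POLR3G to POLR3GL used counts with a pseudocount of 0.5 and an exact permutation test (scipy 1.17.1). The fit was tested on simulated counts with known changes. Promoters came from a RefSeq table on GRCh38.p14.

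Groups and replicate numbers were taken from the sample titles and treatments. Where separate cultures are not shown by a label, p-values measure only the spread between these libraries, and intervals or limits of detection (3 counts) cover counting error only. Named genes were all members, USP7, the 2 highest and the 2 lowest called genes of each factor list, and genes overlapping a member. Marker genes and the polymerase genes outside the symbol rule were named beside them. The nearest tested coding genes of 4 catalytic subunits were added by position. A few of these genes, 1 tested subunit among them, are not reported here but stay in the counts. The members, lists and tests were chosen with earlier results of these data known. Alternatives were other scalings, DESeq2 1.42.0, other filters, gene length and GC corrections, a replicate block, thinning to the smallest library and leaving out each library.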

Additional observations from a re-analysis of the deposited data

How the results depend on the processing

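Of the 31 tested subunits, 12 kept their direction and their call under all 19 alternatives: POLR1A, POLR1F, POLR2A, POLR2B (log2 fold change -2.09 to -1.76), POLR2C, POLR2E, POLR2F, POLR2H, POLR2L, POLR3B (-1.76 to -1.66), POLR3C and POLR3G (1.24 to 1.36). The counts of subunits higher at 0.05 ranged from 10 to 15 and lower from 3 to 5 when a library was left out. All genes then gave 2522 to 3830 higher and 2972 to 4100 lower calls at 0.05, among 13301 to 14917 genes tested. Among the 6 subunits that overlap no gene, 4 were higher and 0 lower at 0.05, and 1 higher and 0 lower at 1e-05, since neither POLR2B nor POLR3B is among them. In the reported fit 23.6% and 26.5% of all genes tested were higher and lower at 0.05, and 1.79% and 4.13% at 1e-05. The subunits higher at 1e-05 (2 in the reported fit) were 1 with library totals alone, 5 with DESeq2's Wald test, 6 without a filter on low counts, 8 after GC correction and 0 to 6 without a library. The subunits lower at 1e-05 were 1 to 2 without a library, with 1 only without FT671 replicate 3. Among all genes, higher calls at 1e-05 (249) became 792 with the Wald test, 977 without a filter, 518 after gene length correction, 961 after GC correction and 34 to 1106 without a library. Lower calls (574) became 1155, 1757, 621, 1066 and 73 to 1501. The factors higher at 0.05 were 23 to 34 and those lower were 9 to 18 without a library. The causes of these shifts were not tested.

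The replicate numbers were not shown to pair the libraries: same-numbered libraries deviated from their group means with correlations of 0.115, -0.0605 and 0.140, and DMSO replicate 2 correlated best with FT671 replicate 1 (0.125). With the replicate number as a block, 16 subunits were higher and 4 lower at 0.05, and 5 higher at 1e-05. All genes then gave 3374 higher and 3761 lower calls at 0.05, and 402 and 753 at 1e-05. With block and gene length correction 7 subunits were higher at 1e-05 and all genes gave 875 and 878, and with block and GC correction 7, 930 and 966. The median of the RNA polymerase II subunits was 0.48 after GC correction, with or without the block. POLR2I passed 0.05 with the block (0.28), and with block and GC correction so did POLR2I (0.35), POLR2G (0.25) and POLR1D (0.22). With block and gene length correction POLR3A (0.21) and POLR1D (0.34) passed.

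Log2 fold changes of 5 subunits that did not pass the test changed sign under some alternatives. POLR1B was 0.060 after gene length correction and 0.061 with the block added. POLR2D was -0.013 after thinning, and -0.020 (without DMSO replicate 1) to 0.073 without a library, with -0.0042 without FT671 replicate 3. POLR3F was -0.0059 with the block, -0.0041 after thinning, and -0.092 (without FT671 replicate 3) to 0.16 without a library, with -0.032 without DMSO replicate 1. POLR3GL was -0.26 to 0.11 (without FT671 replicate 2) without a library, with 0.031 without DMSO replicate 1. POLR3K was -0.0064 without a filter, -0.057 after gene length correction, -0.018 with the block added, and -0.11 (without DMSO replicate 3) to 0.18 without a library, with -0.067 without FT671 replicate 1. The POLR3G to POLR3GL difference ranged from 1.12 to 1.57 without a library and was 1.38 with a pseudocount of 2.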

Other observations

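Of the transcripts with a POLR symbol that do not encode a protein, the antisense pseudogene POLR1HASP had the most reads, with 310, 299 and 96 counts in DMSO and 143, 116 and 280 counts upon FT671. The lncRNA POLR2J4 had 46, 32 and 14 counts in DMSO and 7, 14 and 44 counts upon FT671, with a log2 fold change of -0.0037 that did not pass the test. The processed pseudogene POLR2CP1 had 7, 6 and 2 counts in DMSO and 0, 1 and 3 counts upon FT671 and was not tested.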
